A study of Macaca fascicularis with 48 samples.

Results

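The 30 gene IDs that gathered the most counts in cynomolgus monkey (Macaca fascicularis) cortex were examined, selected from 28623 IDs by summing each ID's deposited counts over all 48 libraries. They are 0.105% of the IDs and held 234482065 of 1004805188 counts, or 23.3%. The series concerns TREM2 agonist antibody treatment; TREM2 is a surface receptor of microglia. Monkeys received 1 intravenous dose of 200 mg/kg, either hPara.09 (Para09.v2 in the sample labels) or anti-gD, the isotype control antibody. Cortex was collected at day 28 from 6 hPara.09 and 6 anti-gD animals, and at day 4 from another 6 hPara.09 and 6 anti-gD animals. Each of the 24 animals gave 2 frontal cortex punches and therefore 2 libraries, with title numbers n and n + 24. Numbers 25 to 48 are called set 2 here and numbers 1 to 24 set 1; the labels do not say which site a set was taken from.

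Bulk cortex RNA mixes transcripts of neurons, astrocytes, oligodendrocytes, microglia and vessel cells. Its most abundant messages typically include transcripts of the mitochondrial genome, which are many because each cell carries many copies of that genome, and nuclear messages for myelin, cytoskeleton, synaptic and glycolytic proteins. Which of these the 30 IDs stand for is not stated here, because the files carry IDs alone and the RefSeq table used here (40596 genes) gives no Ensembl IDs by which to look them up. For the same reason no role is given for any member, and the labelled tissue was not checked against its marker genes. In bulk tissue, fewer cells of a type and less RNA per cell cannot be told apart.

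Library totals ran from 12137146 to 32118950 counts, and the sums of both libraries of an animal from 32116548 to 55236819. All 30 members were counted in all 48 libraries, the lowest single value being 11514 counts, so counting error is small for them beside the spread between libraries. All 30 also passed the low-count filter of the tests. The library numbered 29, from anti-gD day 4 animal 5, stood apart: it had the lowest total, the fewest IDs with a count (17371, against up to 19428 elsewhere) and the highest member share. Several values are given with and without it. Because the members were picked on their count sums, these sums and the shares built from them are descriptions and carry no test.

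The rule cut through a gentle slope. ENSMFAG00000031336, ENSMFAG00000031296 and ENSMFAG00000032399, at ranks 28 to 30, had sums of 1896690, 1885429 and 1792360 counts. Just outside, ENSMFAG00000001708, ENSMFAG00000046423 and ENSMFAG00000042941, at ranks 31 to 33, had 1719563, 1698470 and 1672551 counts. The upper end was steadier than the edge. Of the 30 members, 17 were among the 30 most counted IDs of every one of the 48 libraries, while 59 IDs reached that rank in at least 1 library. A single library shared 23 to 29 of its own 30 most counted IDs with the members, with a median of 27. Ranking by mean CPM (the count scaled by the total of its library) gave the same 30 IDs, and ranking by the counts of the hPara.09 day 28, anti-gD day 28, hPara.09 day 4 or anti-gD day 4 libraries alone gave 30, 29, 29 and 29 of them.

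The members' widths, which are the gene lengths given in the files, ranged from 346 bases (ENSMFAG00000046422) to 9679 bases (ENSMFAG00000031296). Their median was 2093 bases, against 1961 bases for the 23535 IDs with any count. This middle value hides a split by ID number, seen only after the values were known. Of the members, 12 lie in 2 runs of neighbouring ID numbers. Run A holds ENSMFAG00000000002 and ENSMFAG00000000004, and its other 22 IDs are 59 to 75 bases wide and have at most 4536 counts each. Run B holds 10 members among 13 IDs in a row, from ENSMFAG00000046415 to ENSMFAG00000046427. Its remaining IDs are ENSMFAG00000046423 (297 bases, rank 32), ENSMFAG00000046419 (207 bases, rank 64) and ENSMFAG00000046426 (528 bases, rank 806). The 12 run members were 346 to 1812 bases wide, with a median of 998.5 bases. The 18 other members were 1605 to 9679 bases wide, with a median of 3830 bases. Neighbouring IDs need not be neighbours in a genome, and no annotation with positions for these IDs was used here.

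The 10 members with the largest sums were all in the runs. ENSMFAG00000046427 (1141 bases) came first with 30387502 counts, 3.02% of all counts, and was the most counted ID in 47 of the 48 libraries. ENSMFAG00000046421 (784 bases) followed with 21855086 counts or 2.18%. ENSMFAG00000046416 (1042 bases) had 1.98% of all counts and ENSMFAG00000046420 (681 bases) had 1.92%. ENSMFAG00000046424 (1378 bases) had 1.83%, ENSMFAG00000046415 (955 bases) 1.70% and ENSMFAG00000046417 (1539 bases) 1.35%. ENSMFAG00000000004 (1560 bases), from run A, had 1.30%, ENSMFAG00000046418 (684 bases) 1.01% and ENSMFAG00000046425 (1812 bases) 0.889%. The first member outside the runs was ENSMFAG00000042945 (4961 bases) at rank 11, with 7075307 counts or 0.704%. From rank 14 on, every member lay outside the runs. These 17 IDs reached from 5189652 counts for ENSMFAG00000041649 down to the 1792360 of ENSMFAG00000032399.

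**Figure D1:**
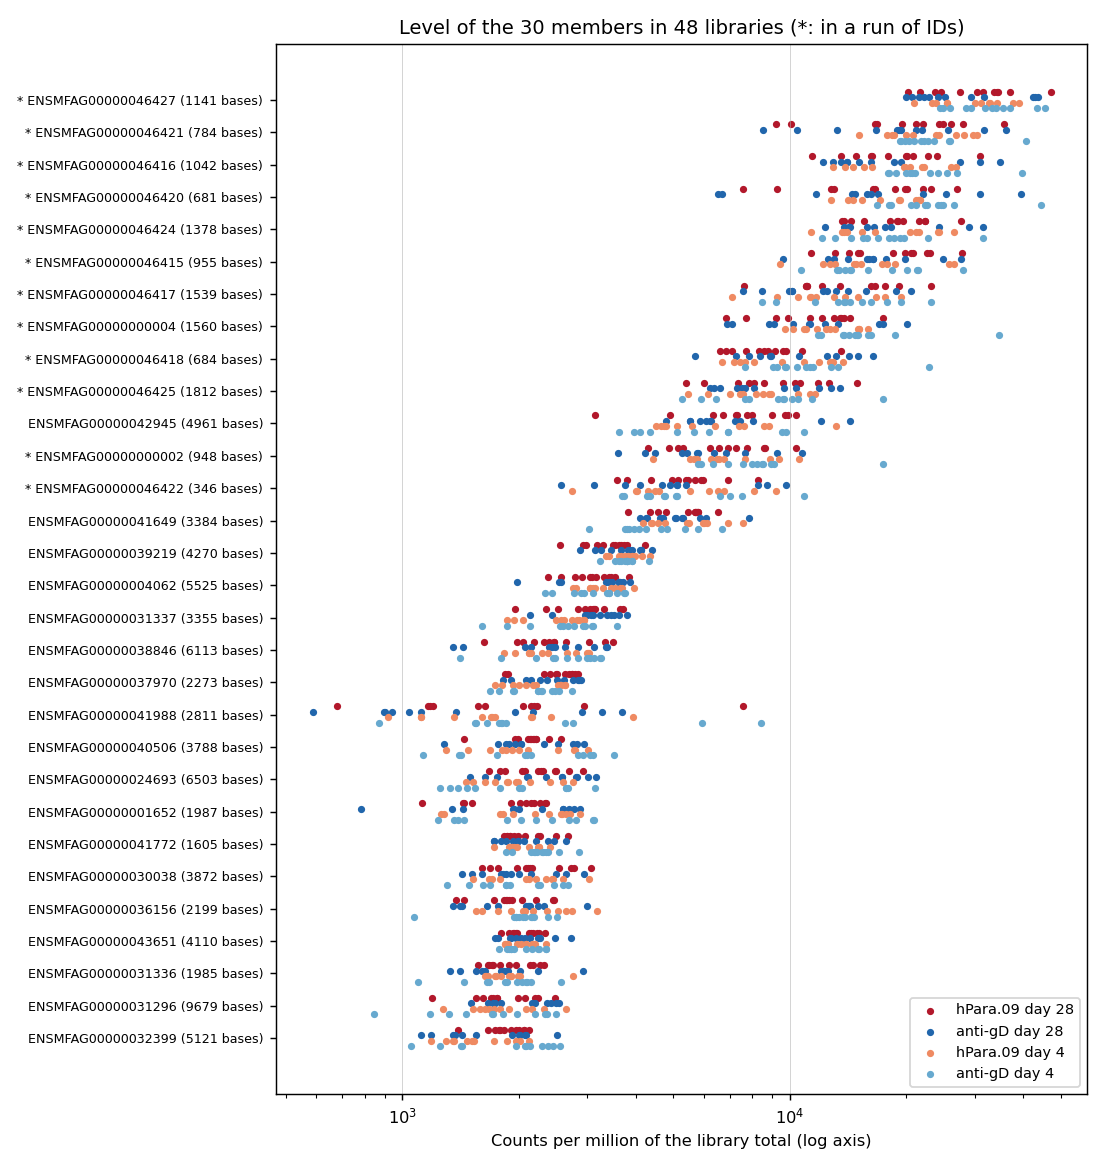
Each point is 1 library's level of 1 member, in CPM of the library total on a log axis, with hPara.09 day 28, anti-gD day 28, hPara.09 day 4 and anti-gD day 4 libraries on lines of their own and widths beside the IDs. The starred members, those in the runs of IDs, fill the first 10 ranks, and the points of the 4 groups lie over each other for every member, with ENSMFAG00000041988 spread the most.

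A long transcript gives more counts than a short one at the same number of molecules, so levels were also compared as counts per base, scaled within each library as CPM is. On this scale ENSMFAG00000046420 was first, with a median level over the 48 libraries of 54718 per-base CPM. ENSMFAG00000046421 had 53472 per-base CPM and ENSMFAG00000046427 had 51976 per-base CPM. The ranges over libraries were wide, from 19058 to 99251 per-base CPM for ENSMFAG00000046420 and from 35910 to 71972 per-base CPM for ENSMFAG00000046427, so the order of these 3 is not separated by their spread. ENSMFAG00000046422, the narrowest member, stood 13th by counts and 6th per base, with a median of 29291 per-base CPM. All 12 run members stayed among the first 30 IDs per base, but 9 of the 18 others did not. ENSMFAG00000031296, the widest, dropped to rank 194 per base and ENSMFAG00000024693 (6503 bases) to rank 104. The members together held a median of 39.5% of a library on the per-base scale, and the run members alone a median of 37.0%.

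The share of a library's counts held by the 30 members ranged from 16.7% to 39.3%, with a median of 22.6%. Almost all of this range came from the runs. The 12 run members held 11.5% to 35.6% (median 17.9%), whereas the 18 others held 3.70% to 6.04% (median 4.90%). The highest member shares were 39.3% in the library numbered 29 (anti-gD day 4, animal 5), 35.7% in that numbered 37 (anti-gD day 28, animal 13) and 32.7% in that numbered 44 (hPara.09 day 28, animal 20). The lowest were 16.9% in the library numbered 46 (hPara.09 day 28, animal 22) and 16.7% in that numbered 15 (anti-gD day 28, animal 15). The 3 highest thus came from both antibodies and both days. The 2 lowest were both day 28 libraries, and the next, at 17.7% each, were those numbered 16 (anti-gD day 28, animal 16) and 11 (hPara.09 day 4, animal 11). Without the library numbered 29 the highest member share was 35.7% and the run members held 11.5% to 29.8%.

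Summed per animal, the 30 members held 17.8% to 29.7% (median 22.9%) in hPara.09 day 28 animals, against 18.1% to 33.1% (median 20.6%) in anti-gD day 28 animals. At day 4 they held 19.1% to 29.4% (median 22.5%) in hPara.09 animals, against 22.1% to 29.6% (median 23.8%) in anti-gD animals. The 4 ranges overlapped over most of their length. The 18 members outside the runs held 4.56% to 5.28% in hPara.09 day 28 animals and 4.35% to 5.34% in anti-gD day 28 animals. At day 4 their share was 4.51% to 5.36% in hPara.09 animals and 4.31% to 5.57% in anti-gD animals, so it differed little between animals of any group.

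**Figure D2:**
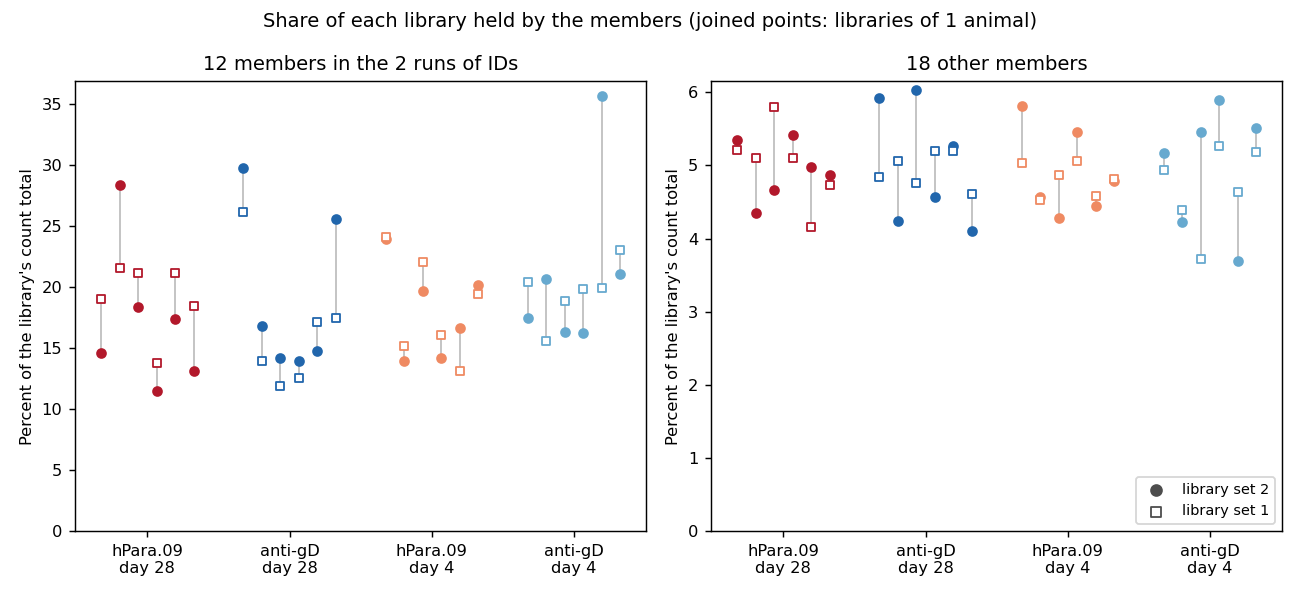
Percent of each library's count total held by the 12 run members (left) and by the 18 other members (right), with 6 animals for each antibody and day and a line joining the set 2 library (filled circle) to the set 1 library (open square) of an animal. Shares of the run members span 11.5% to 35.6%, those of the others 3.70% to 6.04%, and the longest line on the left is anti-gD day 4 animal 5.

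Member shares of the libraries of 1 animal differed by a median of 2.89 percentage points, against a median of 4.30 points between libraries of different animals. The member share in set 2 minus that in set 1 ran from −5.16 to 14.8 percentage points over the 24 animals, and was positive in 11 of them. The difference of 14.8 points belonged to animal 5, whose run members were higher in set 2 by 0.96 to 1.67 on the log2 scale, all 12 in the same direction. Without animal 5 the differences ran from −5.16 to 7.53 points. ENSMFAG00000046422 had 13890 CPM in its set 2 library and 4351 CPM in its set 1 library (scaled by trimmed mean of M-values, TMM). For 14 of the 30 members, animal 5 had the largest difference between libraries, and for 7 others it was animal 3. In animal 3, ENSMFAG00000042945 had 10879 CPM in set 2 and 4380 CPM in set 1.

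The run members did not keep a fixed proportion to each other. ENSMFAG00000046420 made up 4.70% to 14.9% of the summed run counts (median 9.83%) over the 48 libraries, a 3.16-fold range. ENSMFAG00000046418 ranged 2.47-fold, from 4.37% to 10.8%, and ENSMFAG00000046421 2.21-fold, from 6.81% to 15.1%. The steadiest was ENSMFAG00000046416, which kept between 8.87% and 13.1%. These 4 ranges were the same without the library numbered 29. Of the 12, 11 had their highest CPM in the library numbered 29 and the exception, ENSMFAG00000046427, was highest in the library numbered 44.

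Across the 48 libraries the standard deviation (SD) of log2 CPM had a median of 0.396 over the members, beside 0.344 over all 15853 genes tested per library. ENSMFAG00000041988 (2811 bases) varied most, with an SD of 0.854. It ranged 14.4-fold, from 587 CPM in the library numbered 38 to 8445 CPM in that numbered 28, and was among the 30 most counted IDs in only 23 libraries. ENSMFAG00000046420 (SD 0.645) and ENSMFAG00000046421 (SD 0.562) came next. ENSMFAG00000043651 (SD 0.126), ENSMFAG00000039219 (SD 0.154) and ENSMFAG00000041772 (SD 0.211, or 0.178 without the library numbered 29) varied least. Without that library the members' median SD was 0.398. ENSMFAG00000043651 kept between 1729 and 2721 CPM over all 48 libraries.

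For ENSMFAG00000041988, TMM-scaled CPM per animal was 916 to 4873 (median 1917) in hPara.09 day 28 animals, against 723 to 3299 (median 1522) in anti-gD day 28 animals. At day 4 it was 1232 to 2846 (median 1774) in hPara.09 animals, against 1387 to 7407 (median 1978) in anti-gD animals. The groups overlapped. The highest day 28 value was that of hPara.09 animal 21 and the highest day 4 value that of anti-gD animal 4. In animal 21 the level was 1591 CPM in the set 2 library and 7743 CPM in the set 1 library.

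The variance of each member was divided into a part between animals of a group and a part between the libraries of an animal. The between-animal part had a median of 49.4% over the 30 members, beside 31.0% over all genes tested. For the run members the median was 59.5%, with a range of 44.9% to 77.4%, and for the 18 others it was 36.7%, with a range of 0% to 75.2%. After subtracting the set means, the medians were 56.4% for the members and 48.4% for all genes, so part of the gap to other genes went with the sets. Without the libraries numbered 29 and 40, those with the lowest totals, the members' median was 55.1%. ENSMFAG00000046420 (77.4%), ENSMFAG00000040506 (75.2%) and ENSMFAG00000046421 (71.2%) had the largest between-animal parts. At the other end, ENSMFAG00000030038 and ENSMFAG00000043651 were at 0% and ENSMFAG00000041649 at 5.92%. The estimate for ENSMFAG00000030038 was 49.9% once the set means were removed, and that for ENSMFAG00000041649 was 44.2%. For ENSMFAG00000043651 it was still 0%.

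The antibody comparisons asked whether any member's level differed between hPara.09 and anti-gD animals. None of the 30 members passed the threshold (adjusted p under 0.05, edgeR quasi-likelihood test with Benjamini-Hochberg adjustment over 16721 genes) at day 28, at day 4, or over both days. Among all genes tested the share called was 0 percent in each of these comparisons too. At an unadjusted p under 0.05 there were also 0 members in each, beside 4.84% of all genes at day 28, 2.59% at day 4 and 3.04% over both days. By DESeq2, by limma voom and under every other alternative run, again 0 members were called. In no member did the 6 hPara.09 animals lie apart from the 6 anti-gD animals, where 0.173 percent of all genes did so at day 28 and 0.0957 percent at day 4.

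At day 28 the members' log2 fold changes (hPara.09 over anti-gD) ran from −0.27 to 0.33 with a median of 0.01; 15 were above 0 and 15 below. The smallest p belonged to ENSMFAG00000039219 (4270 bases). It had 2972 to 3942 CPM (median 3353) in hPara.09 animals, against 3113 to 4002 CPM (median 3675) in anti-gD animals. The log2 fold change was −0.12 (SE 0.086), with an adjusted p of 0.951 by edgeR, and the groups overlapped almost fully. For 23 of the 30 members the 95% interval excluded a change of 1.5-fold in either direction, and for 29 of 30 a change of 2-fold.

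At day 4 the log2 fold changes ran from −0.64 to 0.22 with a median of −0.05; 7 were above 0 and 23 below, while the median over all genes was −0.01. Of the 12 run members, 11 were below 0, with a median of −0.15, and their standard errors were 0.22 to 0.31. Without the library numbered 29, 8 of the 12 were below 0, with a median of −0.08. The 12 varied together across animals, so they are not 12 independent observations. The smallest p belonged to ENSMFAG00000041649 (3384 bases), at 4124 to 6532 CPM (median 5623) in hPara.09 animals, against 3742 to 5386 CPM (median 4650) in anti-gD animals. Its log2 fold change was 0.22 (SE 0.122) with an adjusted p of 1.00 by edgeR, and the ranges overlapped. It also had the smallest p over both days, with a log2 fold change of 0.14 (SE 0.086) and an adjusted p of 0.999 by edgeR. For 19 of the 30 members the day 4 interval excluded a 1.5-fold change, and over both days it did so for 28.

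**Figure D3:**
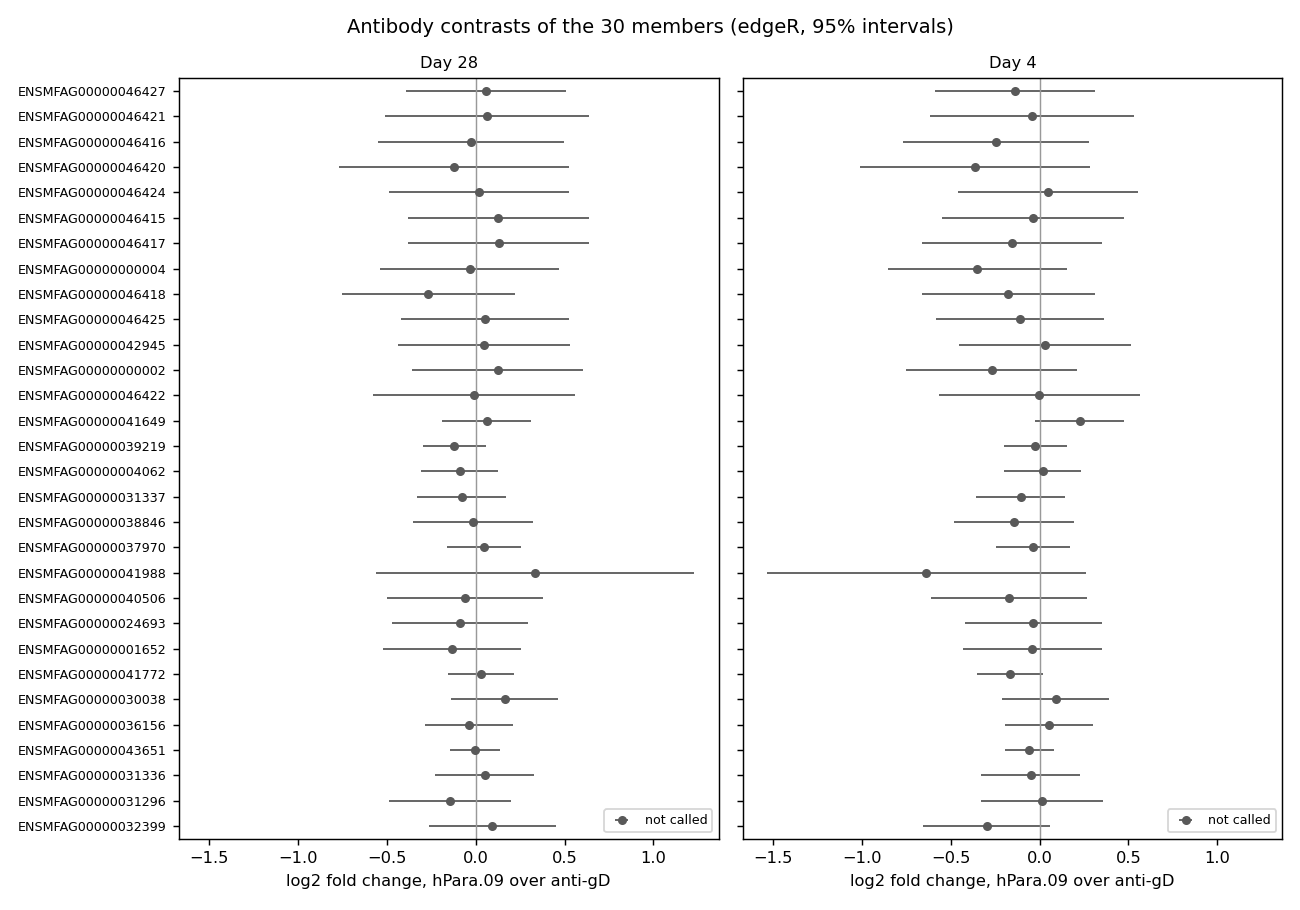
Log2 fold change (hPara.09 over anti-gD) of each member with its 95% interval from edgeR, at day 28 (left) and at day 4 (right), in the order of the count sums. Every interval includes 0, and the widest belong to ENSMFAG00000041988.

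ENSMFAG00000046427, the most counted member, shows how wide the animals of a group were. Its level was 23691 to 45498 CPM (median 28675) in hPara.09 day 28 animals, against 18843 to 49923 CPM (median 23896) in anti-gD day 28 animals. At day 4 it was 21456 to 40078 CPM (median 29714) in hPara.09 animals, against 28333 to 40794 CPM (median 32530) in anti-gD animals. The spread within each group exceeded the difference between antibodies, at a log2 fold change of 0.06 (SE 0.218) at day 28 and −0.14 (SE 0.218) at day 4. ENSMFAG00000046420 was wider still, at 7799 to 25321 CPM in hPara.09 day 28 animals and 5965 to 40237 CPM in anti-gD day 28 animals. Its lowest and highest values both came from the day 28 anti-gD group.

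The antibody difference at day 28 minus that at day 4 was also tested, and 0 members and 0 percent of all genes were called by edgeR. No member had an unadjusted p under 0.05, beside 4.28% of genes. The smallest p was that of ENSMFAG00000032399 (5121 bases), with a difference of 0.39 (SE 0.245) on the log2 scale and an adjusted p of 1.00 by edgeR. It had 1627 to 2040 CPM (median 1841) in hPara.09 day 28 animals, against 1135 to 2516 CPM (median 1598) in anti-gD day 28 animals. At day 4 it had 1280 to 2280 CPM (median 1545) in hPara.09 animals, against 1358 to 2500 CPM (median 2034) in anti-gD animals. Each pair of ranges overlapped. These intervals were wide: a difference of 1.5-fold was excluded for only 10 of the 30 members.

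Day 28 was compared with day 4 in the animals of each antibody; these comparisons use the same animals as the antibody contrasts. In hPara.09 animals 0 of the 30 members were called by edgeR, where 0.263 percent of all genes were, and 1 member had an unadjusted p under 0.05, beside 18.2% of genes. That member was ENSMFAG00000039219, at 2972 to 3942 CPM (median 3353) at day 28, against 3560 to 4479 CPM (median 3747) at day 4. Its log2 fold change was −0.19 (SE 0.086) with an adjusted p of 0.251 by edgeR. In no member were the days apart without overlap, while 2.08 percent of all genes were.

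In anti-gD animals 0 members and 0 percent of all genes were called by edgeR, and 1 member had an unadjusted p under 0.05, beside 10.0% of genes. That member was ENSMFAG00000041772 (1605 bases), at 1823 to 2103 CPM (median 2059) at day 28, against 2080 to 2549 CPM (median 2335) at day 4. Its log2 fold change was −0.20 (SE 0.090) with an adjusted p of 0.469 by edgeR, and the day ranges met only at their edges. No member's days were apart, beside 0.341 percent of all genes. Of the 12 run members, 11 were below 0, with a median log2 fold change of −0.20 and standard errors of 0.22 to 0.31. Without the library numbered 29, 8 were below 0, with a median of −0.14, and ENSMFAG00000041772 had a log2 fold change of −0.16 (SE 0.088) with an adjusted p of 0.540 by edgeR.

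Over both antibodies, 0 of the 30 members were called by edgeR between days, beside 4.6 percent of all genes, and 2 had an unadjusted p under 0.05, beside 23.6% of genes. The smallest p was again that of ENSMFAG00000039219, with 2972 to 4002 CPM (median 3525) at day 28, against 3560 to 4479 CPM (median 3838) at day 4. Its log2 fold change was −0.14 (SE 0.061), with an adjusted p of 0.173 by edgeR. Over the alternatives the smallest adjusted p of any member in this comparison was 0.0641 (limma voom). Here 27 of the 30 intervals excluded a 1.5-fold change.

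Set 2 was compared with set 1 within animals, with the animal as a block. By edgeR, 11 of the 30 members were called, beside 59 percent of the 15853 genes tested; 7 were higher in set 2 (all genes 30.8 percent) and 4 lower (all genes 28.2 percent). The median absolute log2 fold change was 0.13 for the members and 0.19 for all genes. No member differed in the same direction in all 24 animals, beside 3.46 percent of all genes. Of the 12 run members 2 were called, both higher in set 2, and of the 18 others 9. The count was 17 without anti-gD day 4 animal 3 and 8 to 12 without any 1 of the other 23 animals. Among those 23, it was 10 without animal 5, which gave the library numbered 29. In the fit with no replicate block it was 6, all higher.

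The largest difference was that of ENSMFAG00000030038 (3872 bases). It had 1419 to 3499 CPM (median 2438) in set 2, against 1320 to 2750 CPM (median 1716) in set 1, and was higher in set 2 in 20 of 24 animals. Its log2 fold change was 0.42 (SE 0.059), with an adjusted p of 1.06e-06 by edgeR. ENSMFAG00000041649 had 3864 to 7679 CPM (median 5578) in set 2, against 3799 to 5909 CPM (median 4434) in set 1, a log2 fold change of 0.29 (SE 0.056). It was higher in 21 of 24 animals, with an adjusted p of 6.64e-05 by edgeR. For both, the set ranges overlapped, and the difference lay within animals.

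ENSMFAG00000042945 was higher in set 2 by 0.34 on the log2 scale (SE 0.094, 18 of 24 animals). Among the run members, ENSMFAG00000046422 was higher by 0.30 (SE 0.090, 19 of 24 animals) and ENSMFAG00000000002 by 0.29 (SE 0.081, 18 of 24 animals). ENSMFAG00000031336 (1985 bases) was higher by 0.19 (SE 0.066, 15 of 24 animals). ENSMFAG00000043651, the member with the least spread, was higher by 0.10 (SE 0.040, 17 of 24 animals), with an adjusted p of 0.0385 by edgeR; this call was lost in 16 of 31 alternatives, 13 of them with 1 animal left out.

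On the other side, ENSMFAG00000001652 (1987 bases) fell by 0.23 on the log2 scale (SE 0.050) and was lower in set 2 in 20 of 24 animals. It had 954 to 2915 CPM (median 1932) in set 2, against 1439 to 3169 CPM (median 2230) in set 1. The log2 fold change of ENSMFAG00000038846 (6113 bases) was −0.21 (SE 0.083), that of ENSMFAG00000036156 (2199 bases) was −0.18 (SE 0.049) and that of ENSMFAG00000004062 (5525 bases) was −0.14 (SE 0.059). The adjusted p by edgeR was 0.0439 for ENSMFAG00000004062 and 0.0275 for ENSMFAG00000038846, and both calls were lost in part of the alternatives. The first 3 run members by count, ENSMFAG00000046427, ENSMFAG00000046421 and ENSMFAG00000046416, were not called, at log2 fold changes of −0.12, 0.18 and 0.05.

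**Figure D4:**
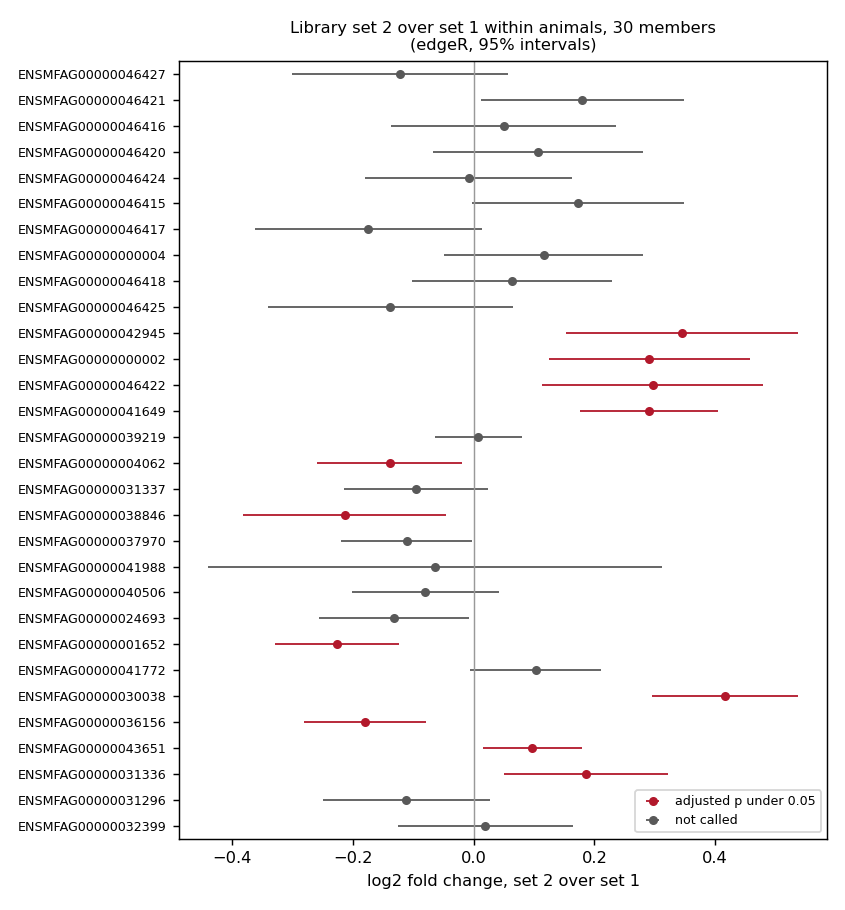
Log2 fold change of each member in library set 2 over set 1, with the animal as a block and 95% intervals from edgeR; called members are red. The 11 called members lie between −0.23 and 0.42, and 2 of them belong to the 12 members in the runs of IDs.

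How the members moved together was described by Pearson's r of log2 CPM. It was taken once over the 24 animals with group means removed, and once over the 24 differences of set 2 minus set 1. The points share library depth and TMM scaling, so no p is given. Across animals, 85 member pairs (19.5%) had r of at least 0.7, beside 0.641% of all pairs of tested genes. For the differences between libraries it was 103 pairs (23.7%), beside 1.52% of all gene pairs. The members have far more counts than most genes, and counting error, which lowers r, is smaller for them, so the shares compare unlike genes.

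The run members formed the tightest block. Across animals their 66 pairs had a median r of 0.829 (0.585 to 0.938), and 62 pairs reached 0.7. In the differences between libraries the median was 0.954 (0.811 to 0.988), and all 66 pairs reached 0.7. Within set 2 alone the median r was 0.880 and within set 1 alone 0.814. Without animals 5 and 16, which gave the libraries with the lowest totals, the medians were 0.847 across animals and 0.947 for the differences. The highest r across animals was that of ENSMFAG00000046424 with ENSMFAG00000046415 (r 0.938, Spearman's rho 0.937, r 0.926 without the 2 farthest animals). Next were ENSMFAG00000046417 with ENSMFAG00000046422 (r 0.938, rho 0.927, r 0.923 without the 2 farthest) and ENSMFAG00000046427 with ENSMFAG00000046424 (r 0.935, rho 0.922, r 0.902 without them). In the differences, ENSMFAG00000046424 with ENSMFAG00000046418 led (r 0.988, rho 0.961, r 0.983 without the 2 farthest). The 2 members of run A were part of the same block as the 10 of run B.

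A second block was picked out after the correlations were seen. It holds 8 members outside the runs, ENSMFAG00000004062, ENSMFAG00000031337, ENSMFAG00000038846, ENSMFAG00000037970, ENSMFAG00000040506, ENSMFAG00000024693, ENSMFAG00000031296 and ENSMFAG00000032399. Their 28 pairs had a median r of 0.724 across animals and 0.730 in the differences. Against the run members the same 8 had a median r of 0.482 across animals but −0.04 in the differences. Across animals 95 of these 96 pairs were positive (r −0.02 to 0.75), and in the differences 40 were (r −0.43 to 0.30). Within set 2 alone the median was 0.25, and within set 1 alone 0.42. Since the 8 were picked on these correlations, the contrast between the 2 views is a description only. Within the second block, the closest pair across animals was ENSMFAG00000040506 with ENSMFAG00000024693 (r 0.881, rho 0.816, r 0.834 without the 2 farthest animals). In the differences it was ENSMFAG00000040506 with ENSMFAG00000032399 (r 0.905, rho 0.841, r 0.807 without the 2 farthest). ENSMFAG00000042945 and ENSMFAG00000041649, both higher in set 2, kept to each other, with r of 0.803 across animals and 0.858 in the differences.

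Some members ran against the runs. ENSMFAG00000001652 had a negative r with all 12 run members across animals, from −0.77 to −0.47 with a median of −0.69. The lowest was with ENSMFAG00000046427 (r −0.77, rho −0.71, r −0.68 without the 2 farthest animals), at −0.66 within set 2 and −0.69 within set 1. In the differences between libraries its median r with them was −0.17. For ENSMFAG00000036156 the order was the other way, with a median r of −0.63 with the run members in the differences and −0.43 across animals. Its lowest value was with ENSMFAG00000046417 (r −0.66, rho −0.67, r −0.63 without the 2 farthest). ENSMFAG00000041772 and ENSMFAG00000030038 followed the run members between libraries, with median r of 0.728 and 0.705. Across animals their medians were 0.166 and 0.454. ENSMFAG00000039219 had little relation to the run members in either view, with medians of 0.05 and 0.01.

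**Figure D5:**
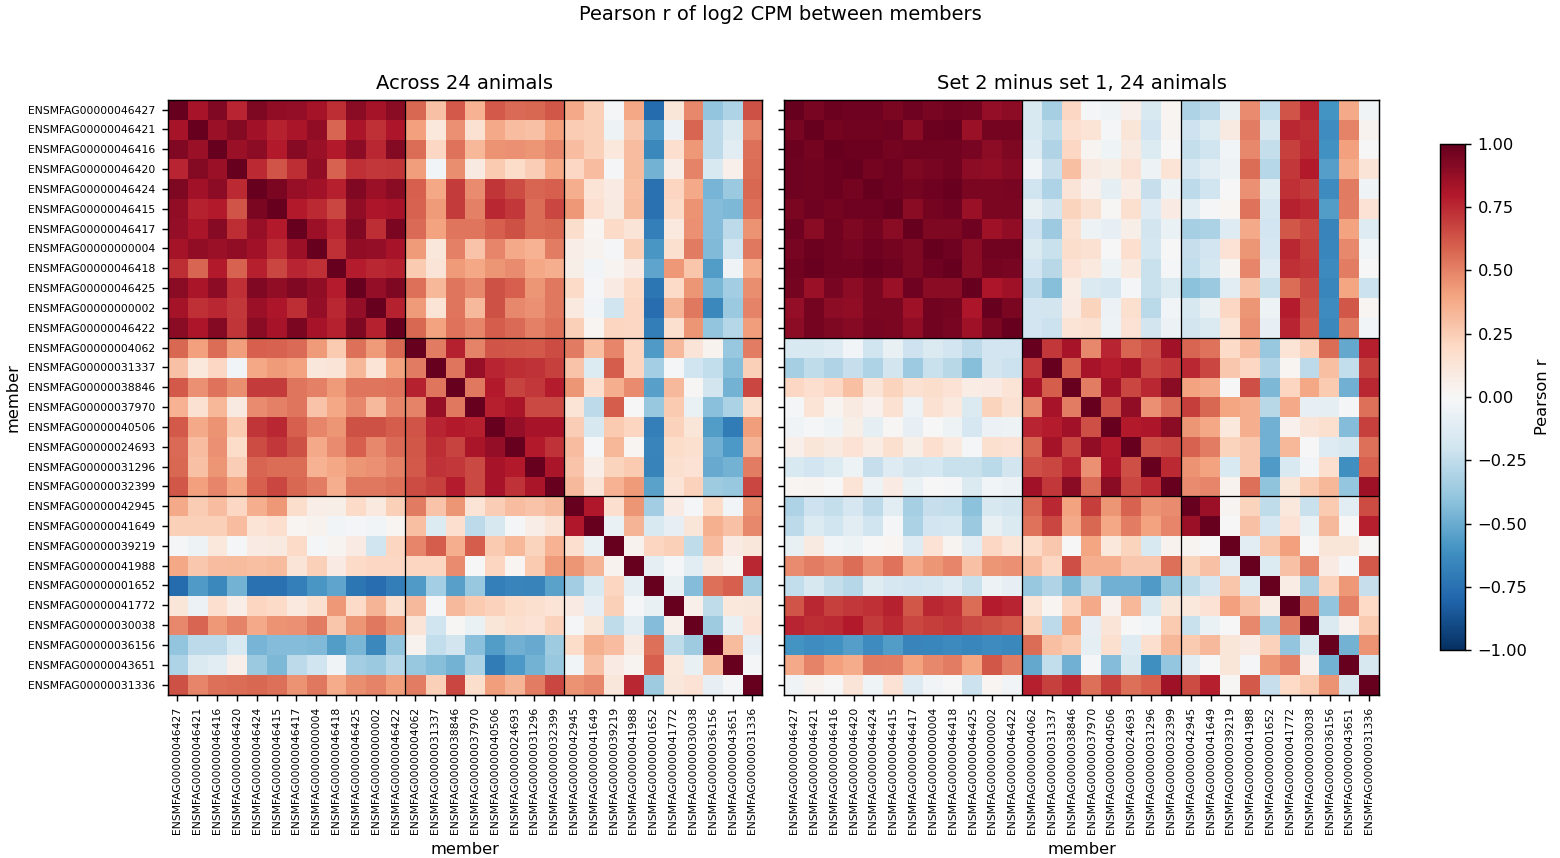
Pearson's r between all pairs of the 30 members, across 24 animals with group means removed (left) and for set 2 minus set 1 within 24 animals (right); black lines set off the 12 run members, the 8 members of the second block and the 10 others. The run members have a median r of 0.829 on the left and 0.954 on the right, while their r with the 8 has a median of 0.482 on the left and −0.04 on the right.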

How the data were processed

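Per the labels' protocols, RNA came from an RNeasy Lipid Tissue preparation that included DNase treatment on the column. The deposited files give a whole-number exonic count, a gene width in bases and an RPKM value for each ID, per the file headers. GSNAP, a read aligner, is named in the submitters' processing notes. Its version and the genome build, annotation and strand setting were not given in the sources used here. Thus IDs that overlap or share reads with near-identical copies are uncertain. The authors' RPKM values served only to recover their divisor, a whole number of reads of which the count total was 57.1% to 65.0%. Other values were computed from the deposited counts.

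For group tests the 2 libraries of an animal were added up (edgeR 4.0.16, R 4.3.3; quasi-likelihood with robust dispersion, TMM factors, default low-count filter, 1 mean per group over 24 animals). Filtering left 16721 genes, and 15853 for the comparison of sets, which had the animal as a block. P-values are two-sided with Benjamini-Hochberg adjustment across the tested genes (threshold 0.05); SE is the log2 fold change over the square root of F. Correlations and variance parts used log2 CPM (prior count 2). Groups come from the sample labels, animals being the replicates. Alternatives were RLE factors, DESeq2 1.42.0, limma voom 3.58.1, no filter, 1 set only, scaling without the members and leaving out animals. Leaving out libraries 29 and 40 was chosen after seeing the data. In the comparison of sets, both libraries of their animals were left out, so the fit without library 29 repeats that without animal 5. The scripts were tested on simulated data. The members, the lists and the rule for named genes were chosen with earlier results of these data known. The rule names the 10 largest sums, called members, the smallest p of each comparison and the extremes of spread, width and correlation. A permutation p was planned for correlations and is not given, since the members were not chosen independently of these data.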

Additional observations from a re-analysis of the deposited data

Results flagged for a closer look

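The 136 sets of 6 animals covered 30 members, their shares (all, run and other members) and the count total, in 4 groups. In 10 sets an animal lay far from its group by Dixon's criterion, which chance alone gives in about 1 of 20. Values are TMM-scaled CPM per animal, and no explanation was tested. In hPara.09 day 28 animals, animal 20 had 45498 of ENSMFAG00000046427, the others 23691 to 31300, and 2088 of ENSMFAG00000043651, the others 2013 to 2040. In the same group animal 19 had 3606 of ENSMFAG00000031337, the others 2697 to 3022. In anti-gD day 28 animals, animal 14 had 2232 of ENSMFAG00000043651, the others 1961 to 2035. In hPara.09 day 4 animals, animal 7 had 4479 of ENSMFAG00000039219, the others 3560 to 3817, and 4234 of ENSMFAG00000004062, the others 2823 to 3346. There, animal 9 had 1888 of ENSMFAG00000043651, the others 2044 to 2091. In anti-gD day 4 animals, animal 5 had 25804 of ENSMFAG00000000004, the others 13479 to 15706, and 17719 of ENSMFAG00000046418, the others 8564 to 11698. In the set 1 library of animal 5 alone, without the library numbered 29, they were at 18914 and 13500 CPM. Animal 4 had 7407 of ENSMFAG00000041988, the others 1387 to 2411.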

How the results depend on the processing

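The count of called members stayed at 0 in the 7 contrasts between groups under every alternative run. Each contrast had 34 or 35 alternatives, 24 of them with 1 animal left out, which gave 242 pairings of a contrast with an alternative. For set 2 against set 1 it was 11; without the replicate block it was 6, and leaving out 1 animal at a time gave 8 to 17. The call of ENSMFAG00000004062 was lost in 18 of 31 alternatives, that of ENSMFAG00000043651 in 16 and that of ENSMFAG00000038846 in 6; those of ENSMFAG00000046422, ENSMFAG00000001652 and ENSMFAG00000036156 were lost without the block only. The cause was not tested. The median share of 22.6% became 13.7% of the reads behind the deposited RPKM, 16.7% for the 10 most counted IDs, 30.0% for the 100 most counted and 39.5% with counts divided by width. No paired analysis was possible for the group contrasts because the groups hold different animals. The median between-animal part was 49.4% to 56.4%, and the pairs with r of at least 0.7 numbered 74 to 92 across animals and 102 to 107 in the differences. With 6 animals a group, intervals of the run members do not exclude changes of 1.5-fold in every contrast.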
